A study of Mus musculus with 8 samples.

Results

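The glucocorticoid receptor gene Nr3c1 and 5 genes that the receptor is known to drive, Fkbp5, Tsc22d3, Sgk1, Klf9 and Zbtb16, were read in the oral epithelium of germ-free and specific pathogen-free (SPF) mice. They were taken by gene symbol from the deposited table. These 6 rows of the 22911 in the table were all present once each, and all 6 passed the filter on low counts. Germ-free mice carry no microorganisms, and SPF mice carry a resident microbiota free of listed pathogens. Both groups were adult wild-type C57BL/6 mice, an inbred laboratory strain, and were untreated before the tissue was taken. Buccal epithelium was separated from the oral mucosa with dispase II, and epithelial cells were sorted by flow cytometry before RNA extraction. Each group held 4 animals, the germ-free ones numbered 1 to 4 and the SPF ones 1, 3, 4 and 5, with 1 library each. Means are therefore given over n = 4 libraries a group, with the standard deviation (SD). The sex of the animals, the sorting gate and the hour at which tissue was taken are not given in the sources used here.

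Corticosterone, the main glucocorticoid of the mouse, is made by the adrenal gland in a daily rhythm and under stress. It binds the receptor in the cytoplasm, where HSP90 and its co-chaperones hold the receptor ready, and the complex moves to the nucleus to raise or lower transcription. In the epidermis the pathway is known to restrain proliferation and inflammation and to support barrier formation, and glucocorticoids can also set the clocks of peripheral tissues. FKBP5 is a co-chaperone that lowers the hormone affinity of the receptor and is itself induced by it, which makes a feedback loop. TSC22D3, also called GILZ, carries part of the anti-inflammatory action, and SGK1 is a kinase that raises sodium transport and cell survival. KLF9 is a zinc-finger factor that responds both to glucocorticoids and to the clock, and ZBTB16, also called PLZF, is a transcriptional repressor that is among the most inducible glucocorticoid targets in many cell types. The comparison asks whether these genes, often read as a gauge of corticosteroid tone, shifted in oral epithelium without microbes.

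The 6 genes did not move one way. Zbtb16 and Tsc22d3 were higher and Sgk1 lower in germ-free libraries, while Nr3c1, Fkbp5 and Klf9 had higher germ-free means that did not pass the test. Thus 3 of the 6 passed edgeR's quasi-likelihood test at an adjusted p under 0.05, against 4.18% of the 15098 genes tested. In the higher direction 2 of 6 passed, against 1.85% of all genes, and in the lower direction 1 of 6, against 2.33%. Germ-free and SPF libraries were fully separated for 5 of the 6, against 13.1% of all genes. Germ-free was above for 4 of them, against 6.24% of all genes, and below for 1, against 6.84%. The median log2 fold change, germ-free minus SPF, was 0.48 over the 6 genes and 0.02 over all genes tested. Because the 6 were chosen with earlier results of these data known, these shares are a description and not a test of the set.

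**Figure D1:**
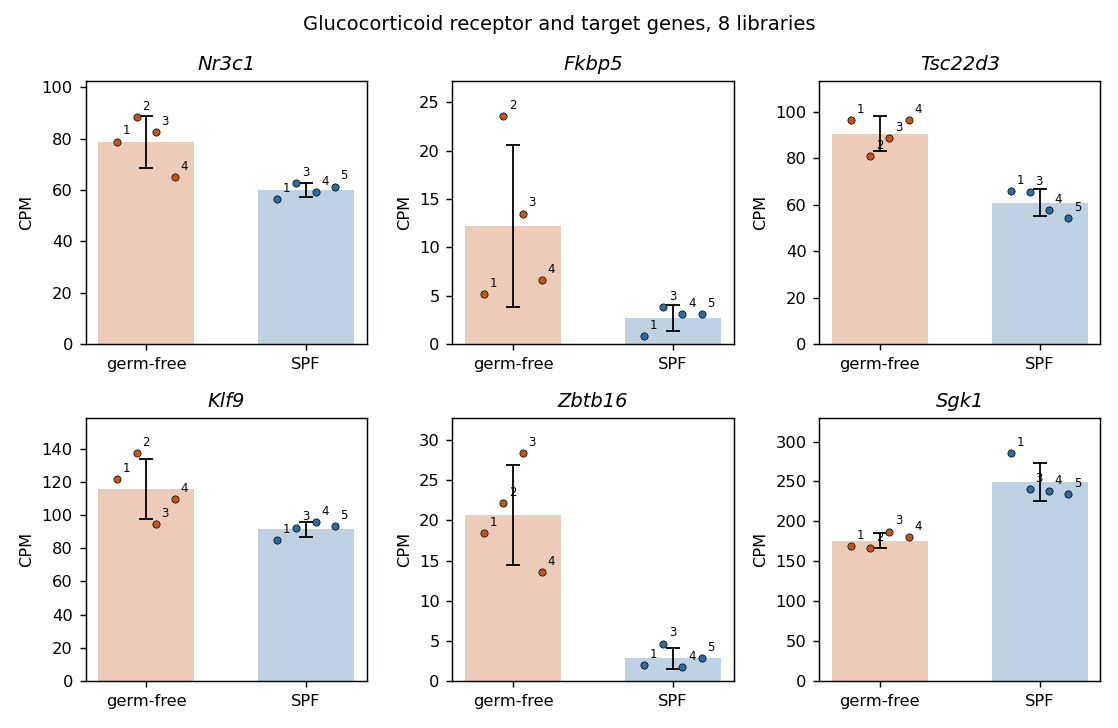
Level of the 6 genes in each library in CPM (the unit of counts relative to scaled library size), germ-free left and SPF right. Bars are means, error bars are SDs (n = 4) and points are libraries with their animal numbers. Zbtb16 lies between 13.6 and 28.4 CPM in germ-free and between 1.76 and 4.65 CPM in SPF libraries, and Sgk1 is the gene with every germ-free library below every SPF library.

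Promoter sequences are shown because the genes with a motif match moved in both directions. RefSeq promoter windows on GRCm38.p6 were at hand for 4 of the 6 genes, 11 windows in all. Each ran from 250 bases before to 50 bases after a transcription start. There were 6 for Sgk1, 3 for Tsc22d3, 1 for Fkbp5 and 1 for Klf9. Which start is used in this tissue was not tested. Both strands were searched for the hexamer TGTTCT of the glucocorticoid response element, the element's full palindrome (the hexamer, preceded by its reverse complement with any 3 bases between), the E-box CACGTG bound by CLOCK and BMAL1, and the D-box TTATGTAA bound by DBP, TEF and HLF. The palindrome contains the hexamer on both strands. Below are the 250 bases upstream of the start for the windows with matches that bear on the comparison, 5′ to 3′ along the gene, with matched letters in capitals.
Sgk1, chr10:21993640-21993889, plus strand: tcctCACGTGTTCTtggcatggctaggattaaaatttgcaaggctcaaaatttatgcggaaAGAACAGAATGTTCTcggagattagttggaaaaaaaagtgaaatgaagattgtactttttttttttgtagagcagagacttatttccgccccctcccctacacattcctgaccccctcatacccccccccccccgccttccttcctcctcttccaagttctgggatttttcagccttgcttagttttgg
Tsc22d3, chrX:140600523-140600772, minus strand: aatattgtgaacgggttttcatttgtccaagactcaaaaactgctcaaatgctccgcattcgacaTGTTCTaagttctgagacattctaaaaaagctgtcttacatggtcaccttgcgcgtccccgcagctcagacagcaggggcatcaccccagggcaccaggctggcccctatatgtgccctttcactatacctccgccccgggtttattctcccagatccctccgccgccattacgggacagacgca
Fkbp5, chr17:28486150-28486399, minus strand: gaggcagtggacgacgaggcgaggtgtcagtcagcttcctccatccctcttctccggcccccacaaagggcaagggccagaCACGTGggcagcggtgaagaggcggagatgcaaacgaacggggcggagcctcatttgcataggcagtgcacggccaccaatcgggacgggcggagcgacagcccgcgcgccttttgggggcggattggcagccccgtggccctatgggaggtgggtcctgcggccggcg
The Sgk1 window held the full palindrome at positions −189 to −175 from the start site, where −1 is the base just before it. Only 3 of 32851 windows of all genes, 0.00913%, held the palindrome in these exact letters. The same Sgk1 window held an E-box at −246 to −241 that overlaps a hexamer at −242 to −237. The Tsc22d3 window shown held a single hexamer at −185 to −180, and the hexamer occurred in 19.0% of all windows. The other Tsc22d3 windows held no match. The Fkbp5 window held an E-box at −169 to −164, and 7.15% of all windows held one. In the single Klf9 window none of these letters was found, and no D-box was found in any of the 11 windows, against 0.938% of all windows. Other Sgk1 starts held the hexamer at −195 to −190 (window start 21881934) and at −13 to −8 (window start 21991973). A match describes letters in a window and shows neither binding nor a cause of the values below. Only exact letters within these windows were searched. A window without a match therefore does not show that the gene lacks a response element.

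Zbtb16 showed the largest fold of the 6. It had 18.5, 22.2, 28.4 and 13.6 CPM in germ-free libraries 1 to 4, against 1.93, 4.65, 1.76 and 2.84 CPM in SPF libraries 1, 3, 4 and 5. The lowest germ-free library was above the highest SPF library. In raw counts this was 146 to 444 in germ-free and 19 to 68 in SPF libraries, so the SPF values carry more counting error. Zbtb16 (ENSMUSG00000066687, GRCm38 chromosome 9, 48654297 to 48836222, minus strand) averaged 20.6 ± 6.26 CPM in germ-free and 2.80 ± 1.33 CPM in SPF libraries (mean ± SD). The log2 fold change was 2.87 ± 0.32 (standard error, SE; adjusted p = 0.000555), a 7.29-fold rise with a 95% interval of 2.16 to 3.57 on the log2 scale. It was called with any 1 library left out, with log2 fold changes of 2.67 to 3.23. It was also called with a stromal marker score as covariate, at 2.50. That score, the mean log2(CPM + 1) of the tested stromal markers, itself differed by group. It was 3.36 to 6.29 in germ-free and 2.14 to 3.47 in SPF libraries. The covariate thus takes up part of the group difference, and calls kept or lost in that fit cannot separate the 2.

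Tsc22d3 rose by less but evenly. It had 96.4, 80.8, 88.7 and 96.4 CPM in germ-free libraries 1 to 4, against 65.9, 65.5, 57.8 and 54.2 CPM in SPF libraries 1, 3, 4 and 5. The groups were separated, and the spread within each was small. Tsc22d3 (ENSMUSG00000031431, chromosome X, 140539528 to 140600659, minus strand) averaged 90.6 ± 7.48 CPM in germ-free and 60.9 ± 5.81 CPM in SPF libraries, a log2 fold change of 0.57 ± 0.10 (adjusted p = 0.00693). It was called with any 1 library left out. With the stromal score as covariate the log2 fold change was 0.64 and the call ended (adjusted p = 0.0806), in a fit that called 51 genes of all.

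Sgk1 moved the other way. It had 169, 167, 187 and 180 CPM in germ-free libraries 1 to 4, against 286, 241, 238 and 234 CPM in SPF libraries 1, 3, 4 and 5. Every germ-free library was below every SPF library, and SPF 1 stood above the other 3. Sgk1 (ENSMUSG00000019970, chromosome 10, 21882184 to 21999903, plus strand) averaged 176 ± 9.64 CPM in germ-free and 249.7 ± 24.1 CPM in SPF libraries, a log2 fold change of −0.51 ± 0.09 (adjusted p = 0.00663). Without SPF 1 it was −0.45 and still called (adjusted p = 0.00905; 0.00905 to 0.0231 over the 8 fits with 1 library left out). With the stromal covariate it was −0.54 and the call ended (adjusted p = 0.105). Of its 6 promoter windows, only the one shown above held the response element palindrome.

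Nr3c1, the receptor itself, just missed the threshold. It had 78.8, 88.4, 82.6 and 64.9 CPM in germ-free libraries 1 to 4, against 56.5, 62.7, 59.0 and 61.3 CPM in SPF libraries 1, 3, 4 and 5. The groups did not overlap, though germ-free 4 lay close to SPF 3. Nr3c1 (ENSMUSG00000024431, chromosome 18, 39410545 to 39519421, minus strand) averaged 78.7 ± 9.97 CPM in germ-free and 59.9 ± 2.72 CPM in SPF libraries. The log2 fold change was 0.39 ± 0.10, with a 95% interval of 0.17 to 0.62 and an adjusted p of 0.05001, just above the threshold. It was called without germ-free 4 (0.47, adjusted p = 0.0298), with upper-quartile scaling, with a filter of at least 1 CPM in 4 libraries and by DESeq2. Over all alternatives its adjusted p ran from 0.0182 to 0.403.

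Fkbp5 had the second-largest fold of the 6 and a wide spread. It had 5.15, 23.6, 13.5 and 6.59 CPM in germ-free libraries 1 to 4, against 0.814, 3.83, 3.13 and 3.13 CPM in SPF libraries 1, 3, 4 and 5. The groups did not overlap, but germ-free 2 was over 4 times germ-free 1, and SPF 1 rested on 8 counts. Fkbp5 (ENSMUSG00000024222, chromosome 17, 28399094 to 28517527, minus strand) averaged 12.2 ± 8.40 CPM in germ-free and 2.73 ± 1.32 CPM in SPF libraries. The log2 fold change was 2.14 ± 0.56, with a 95% interval of 0.87 to 3.41, and did not pass (adjusted p = 0.0699). It was called without germ-free 1 (2.38, adjusted p = 0.0359) and by DESeq2 (2.15, adjusted p = 0.000423), and the value was 1.61 without germ-free 2. Over all alternatives its adjusted p ran from 0.000423 to 0.452.

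Klf9 overlapped between the groups. It had 122, 137, 94.5 and 109 CPM in germ-free libraries 1 to 4, against 85.1, 92.4, 95.5 and 93.2 CPM in SPF libraries 1, 3, 4 and 5. Germ-free 3 lay within the SPF range, and the other 3 germ-free libraries lay above it. Klf9 (ENSMUSG00000033863, chromosome 19, 23141226 to 23168134, plus strand) averaged 115.7 ± 18.2 CPM in germ-free and 91.6 ± 4.52 CPM in SPF libraries, a log2 fold change of 0.34 ± 0.11 that did not pass (adjusted p = 0.0941). Without germ-free 3 it was 0.42 and called (adjusted p = 0.0403; up to 0.338 over the alternatives). The deposited table annotates Klf9, alone of the 6, to the term circadian rhythm.

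The deposited results gave 5 of the 6 a call. In the authors' deposited table, whose fold changes run SPF over germ-free, Fkbp5 was at −2.15 (adjusted p = 0.000786) and Nr3c1 at −0.39 (adjusted p = 0.0269). In the authors' deposited table Klf9 was at −0.33 (adjusted p = 0.110), and 5.21% of 22819 genes had an adjusted p under 0.05. DESeq2 run here on the filtered counts called the same 5 genes, against 8.50% of the genes to which it gave an adjusted p. limma voom with quality weights called Zbtb16, Tsc22d3 and Sgk1, against 6.46% of all genes. The direction of each of the 6 was the same in every alternative run.

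**Figure D2:**
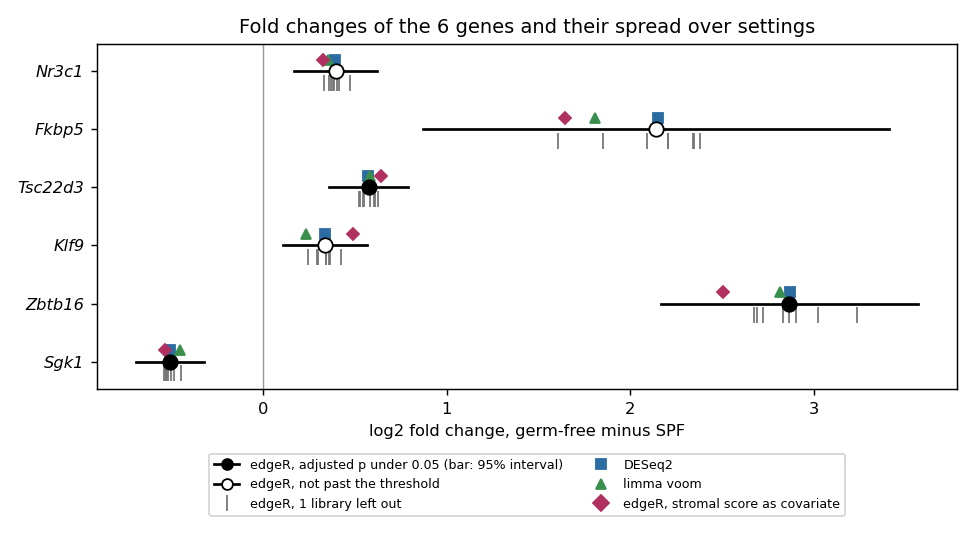
Log2 fold changes of the 6 genes, germ-free minus SPF, on the horizontal axis. Circles with 95% interval bars are the edgeR values, filled where the adjusted p is under 0.05, ticks are fits with 1 library left out, and squares, triangles and diamonds are DESeq2, limma voom and edgeR with the stromal score. Fkbp5 has the widest interval, 0.87 to 3.41, and Sgk1 alone lies below 0.

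Per kilobase of exon the order of the levels was Sgk1, Klf9, Tsc22d3, Nr3c1, Zbtb16 and Fkbp5 in both groups. Levels here are in RPKM, the CPM divided by the exon length in kilobases. In germ-free libraries Sgk1 was at 35.8 ± 1.97, Klf9 at 24.0 ± 3.78, Tsc22d3 at 20.9 ± 1.72 and Nr3c1 at 10.2 ± 1.30 RPKM. In SPF libraries Sgk1 was at 50.9 ± 4.92, Klf9 at 19.0 ± 0.939, Tsc22d3 at 14.0 ± 1.34 and Nr3c1 at 7.79 ± 0.354 RPKM. Zbtb16 and Fkbp5 were the scarce genes, at 3.91 ± 1.18 and 1.29 ± 0.888 RPKM in germ-free and 0.529 ± 0.251 and 0.288 ± 0.139 RPKM in SPF libraries. The ranges of Klf9 and Tsc22d3 overlapped in germ-free libraries (19.6 to 28.5 and 18.6 to 22.2 RPKM), and those of Zbtb16 and Fkbp5 overlapped in SPF libraries (0.332 to 0.881 and 0.0860 to 0.405 RPKM). No exon of the 6 genes overlapped an exon of another gene in the GENCODE M21 annotation.

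Oral epithelial markers were abundant in every library. Stromal markers summed higher in every germ-free library than in every SPF library, and were highest in germ-free 3. All 10 oral epithelial markers were detected and 0 were called, with summed levels of 45954 to 55313 CPM in germ-free and 49071 to 58849 CPM in SPF libraries. The 10 fibroblast and stroma markers summed to 165 to 817 CPM in germ-free and 108 to 153 CPM in SPF libraries, the highest in germ-free 3, and 0 of 8 tested were called. Endothelial markers summed to 12.7 to 115 CPM in germ-free and 5.61 to 14.1 CPM in SPF libraries. Muscle markers summed to 5.76 to 21.4 CPM in germ-free and 5.57 to 8.34 CPM in SPF libraries, again highest in germ-free 3. Of the 5 adipocyte markers 2 were in the table, Fabp4 and Plin1. The lipid-binding gene Fabp4 rose (adjusted p = 0.0416), and Plin1 was at 0.368 CPM or less in every library. The sum of both, mostly Fabp4, was 2.50 to 24.4 CPM in germ-free and 0.0684 to 0.458 CPM in SPF libraries. Zbtb16 was highest in germ-free 3, and without that library its log2 fold change was 2.67. Fkbp5 was highest in germ-free 2. Leukocyte markers also summed highest there, in a range of 1.54 to 14.8 CPM in germ-free and 1.31 to 3.67 CPM in SPF libraries. Of the 10 leukocyte markers 6 were in the table and 1 was tested. The germ-free 2 sum was mostly Ptprc, at 13.1 CPM, while Cd3e was at 0 there and Lyz2 was highest in germ-free 3, at 2.62 CPM. Because ZBTB16 also marks innate-like lymphocytes, the other markers of that list were summed without Zbtb16 and Rora, a clock gene. They came to 3.53 to 19.7 CPM in germ-free and 2.14 to 22.6 CPM in SPF libraries, ranges that overlapped. Gata3 held most of the sum in SPF 5, at 22.5 CPM, and in germ-free 3, at 17.7 CPM. Il7r, Il2rb and Cd3g were highest in germ-free 2, at 9.24, 3.83 and 1.39 CPM. Whether lymphocytes account for any part of the Zbtb16 values was not tested. In bulk RNA, fewer cells of a type and less RNA per cell cannot be told apart. The part of these markers in the results was not tested beyond the covariate fit, whose score itself differed between the groups.

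**Figure D3:**
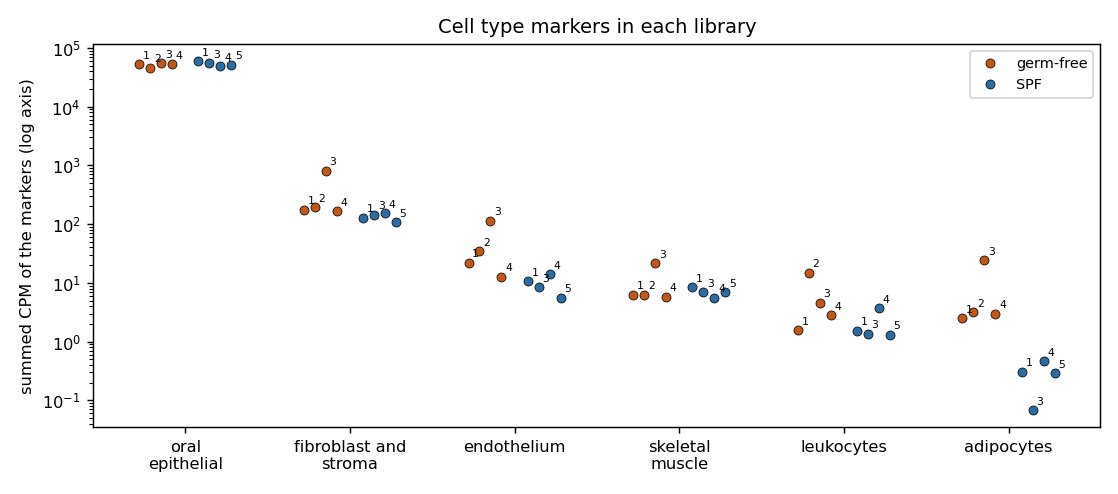
Summed CPM of the markers of 6 cell types in each library on a log axis, germ-free left of SPF, with animal numbers. Oral epithelial markers lie between 45954 and 58849 CPM in all libraries, and germ-free 3 is highest for fibroblast, endothelial, muscle and adipocyte markers. Fibroblast markers are higher in every germ-free library than in every SPF library. The adipocyte sum is mostly Fabp4.

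Among the receptor's partners no gene passed. The list of 21 receptor, chaperone and cofactor genes includes Nr3c1 and Fkbp5. By edgeR 0 of the 21 were called, beside 4.18% of all genes. At an unadjusted p under 0.05 there were 7 of the 21, beside 2941 of the 15098 genes tested. DESeq2 called 4, beside 8.50% of the genes to which it gave an adjusted p, and limma voom 2, beside 6.46% of all genes. The median log2 fold change was 0.08, beside 0.02 over all genes. Nr3c2 encodes the mineralocorticoid receptor, which binds corticosterone too and shares target genes with the glucocorticoid receptor. It had 13.1, 18.6, 15.1 and 11.1 CPM in germ-free libraries 1 to 4, against 0.611, 4.79, 7.18 and 2.04 CPM in SPF libraries 1, 3, 4 and 5. The groups did not overlap, the SPF libraries varied widely, and SPF 1 rested on 6 counts. Its log2 fold change was 1.97 ± 0.56 and did not pass (adjusted p = 0.0960), but it was called by DESeq2, by limma voom, and by edgeR without SPF 1 or without SPF 4. Fkbp4, the co-chaperone that competes with FKBP5 on HSP90 and favours nuclear transfer of the receptor, averaged 152 ± 20.1 CPM in germ-free and 165 ± 15.2 CPM in SPF libraries (log2 fold change −0.12 ± 0.10, 95% interval −0.34 to 0.11). DESeq2 and limma voom also called Hsp90ab1, an HSP90 chaperone gene named here after its values were seen, lower, where edgeR gave −0.23 (adjusted p = 0.129).

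The tested genes that make, activate or export corticosteroids gave no call. Of the 21 listed, 12 were in the table and 6 were tested. By edgeR 0 were called, beside 4.18% of all genes. At an unadjusted p under 0.05 there were 0, beside 2941 of the 15098 genes tested. DESeq2 also called 0, beside 8.50% of the genes to which it gave an adjusted p, and limma voom 0, beside 6.46% of all genes. With 6 genes tested, 0 calls say little of the list. The median log2 fold change was 0.01. Hsd11b1, which encodes the enzyme that regenerates active corticosterone, had 0, 1, 17 and 1 counts in germ-free libraries 1 to 4 and 0 in each SPF library. A count of 0 allows up to 0.205 to 0.305 CPM per SPF library, for counting error only, and the 17 counts fell in germ-free 3, the library richest in stromal markers. Hsd11b2, which encodes the inactivating enzyme, had at most 6 counts in a germ-free and 1 in an SPF library. Neither was tested. The steroid reductase genes Srd5a3 and Srd5a1 and the efflux pump gene Abcb1b had the smallest p-values. Their log2 fold changes were −0.26 ± 0.14, −0.28 ± 0.17 and 0.13 ± 0.15, and none passed.

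Other genes known to be induced by glucocorticoids were more often above 0 than below, and 4 passed, all higher. Of 42 listed 37 were tested, 27 had a log2 fold change above 0 and 10 below, and the median was 0.30. Over all genes 7985 were above 0 and 7113 below. The 4 calls are 10.8% of the tested genes, beside 1.85% of all genes called higher. Those with an unadjusted p under 0.05 by edgeR numbered 11 of the 37, beside 2941 of the 15098 genes tested. Klf15, a zinc-finger factor of amino acid and glucose metabolism, had 31.4, 40.7, 25.4 and 28.6 CPM in germ-free libraries 1 to 4, against 22.4, 19.2, 15.8 and 16.0 CPM in SPF libraries 1, 3, 4 and 5 (log2 fold change 0.78 ± 0.17, adjusted p = 0.0208). Its groups did not overlap. Lpin1, a phosphatidate phosphatase of lipid synthesis, averaged 20.0 ± 2.02 CPM in germ-free and 11.8 ± 1.64 CPM in SPF libraries (0.76 ± 0.16, adjusted p = 0.0205). Glul, glutamine synthetase, averaged 597 ± 83.0 CPM in germ-free and 325 ± 86.8 CPM in SPF libraries (0.88 ± 0.20, adjusted p = 0.0418). Ddit4, an inhibitor of mTORC1 signalling, averaged 37.7 ± 5.63 CPM in germ-free and 26.6 ± 2.48 CPM in SPF libraries (0.51 ± 0.13, adjusted p = 0.0442). All 4 had groups that did not overlap, as had 6 of the 37 in this direction, beside 6.24% of all genes, and 0 in the other, beside 6.84%. The calls were less stable than those of Zbtb16, Tsc22d3 and Sgk1. The number was 0 without SPF 3, without SPF 4 or with the stromal covariate. It was 1 without germ-free 4 and without SPF 5, and 2 without germ-free 3 and with no filter on low counts. Without germ-free 2 it was 3, of which 2 were higher and 1 lower, Xdh, the xanthine dehydrogenase gene (−0.39), named after its values were seen. With 1 library left out, Lpin1 was kept without germ-free 1, 2 or 3 or SPF 1, Klf15 without germ-free 1, 3 or 4 or SPF 1, Glul without SPF 1 or 5, and Ddit4 without germ-free 1 or 2 or SPF 1.

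Several classical targets in this list did not pass. Per1, both a clock gene and a direct glucocorticoid target, averaged 192 ± 27.1 CPM in germ-free and 188 ± 40.1 CPM in SPF libraries, with a 95% interval of −0.28 to 0.35 on the log2 scale. The other genes of this paragraph up to the clock values were picked after their values were seen. Dusp1, a phosphatase that ends MAP kinase signals, averaged 342 ± 107 CPM in germ-free and 219 ± 98.4 CPM in SPF libraries (adjusted p = 0.431 without a replicate block). The metallothionein gene Mt1 averaged 266 ± 39.2 CPM in germ-free and 248 ± 28.1 CPM in SPF libraries, and Mt2 374 ± 46.6 CPM in germ-free and 380 ± 21.8 CPM in SPF libraries, and neither passed. Of the clock genes themselves 10 of 19 rose, beside 1.85% of all genes, and 3 fell, beside 2.33%. Per2, the Per1 relative, averaged 74.7 ± 22.0 CPM in germ-free and 11.6 ± 6.48 CPM in SPF libraries, a log2 fold change of 2.67 ± 0.48 (adjusted p = 0.0327) that was kept without germ-free 2 or SPF 1 and lost without each other library. Corticosterone and the clock both follow the hour of the day, and an hour of sampling that differed between the groups cannot be told apart from the germ-free state.

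Inflammatory genes that glucocorticoids repress were mostly too scarce to test. Of 20 listed 17 were in the table and 8 were tested, with a median of −0.60 and 6 below 0. Over all genes the median was 0.02, and 7113 of 15098 were below 0. There was 1 call among the 8, beside 2.33% of all genes called lower, which says little of the list. Those with an unadjusted p under 0.05 by edgeR numbered 1 of the 8, beside 2941 of the 15098 genes tested. Ccl2, a monocyte chemokine, passed, with 0.662, 0.660, 1.15 and 0.743 CPM in germ-free libraries 1 to 4, against 0.814, 4.52, 3.67 and 9.47 CPM in SPF libraries 1, 3, 4 and 5 (log2 fold change −2.51 ± 0.60, adjusted p = 0.0331). The groups overlapped, since SPF 1 lay below germ-free 3, and the call was kept without SPF 1 (adjusted p = 0.00456; 0.00456 to 0.134 over the fits with 1 library left out) and lost without any other library. Without SPF 5 the log2 fold change of Ccl2 was −1.90. Its values rested on 9, 10, 18 and 8 counts in germ-free libraries 1 to 4 and on 8 counts in SPF 1. The neutrophil chemokine genes Cxcl2 (−1.66 ± 0.79) and Cxcl1 (−0.96 ± 0.54) did not pass, and Cxcl2 was at −2.56 without germ-free 3.

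Relatives of the 6 genes gave 1 call, and genes for SGK1 substrates gave none. Of 11 tested paralogs 1 rose, Klf16, a factor of the same clade as KLF9, at 28.4 ± 3.32 CPM in germ-free and 17.2 ± 3.58 CPM in SPF libraries (0.73 ± 0.17, adjusted p = 0.0258). The share of all genes called higher was 1.85%, and 1 call of 11 says little of the paralogs. That call was kept without germ-free 2 or SPF 5 and lost without each other library. The median over the paralogs was 0.22. Paralogs with an unadjusted p under 0.05 by edgeR numbered 6 of the 11, beside 2941 of the 15098 genes tested. Zbtb20, another BTB zinc-finger repressor, averaged 73.1 ± 25.6 CPM in germ-free and 32.1 ± 13.2 CPM in SPF libraries (1.18 ± 0.38) and did not pass by edgeR. Zbtb20 was called by DESeq2 (adjusted p = 0.0338) and by limma voom (adjusted p = 0.0319). Of 13 tested genes for SGK1 substrates, sodium channel subunits and sodium pump subunits 0 passed in edgeR, beside 4.18% of all genes. DESeq2 likewise called 0, beside 8.50% of the genes to which it gave an adjusted p, and limma voom 0, beside 6.46% of all genes. At these shares 0 calls of 13 say little of the list. At an unadjusted p under 0.05 there were 1 by edgeR, 1 by DESeq2 and 3 by limma voom. Over all 15098 genes tested these numbers were 2941, 3055 and 3379. The median log2 fold change of the 13 was 0.02. The smallest p-values were those of the forkhead factor gene Foxo3 (0.32 ± 0.12), the sodium channel subunit gene Scnn1a (0.21 ± 0.12) and the kinase gene Wnk1 (−0.16 ± 0.09).

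**Figure D4:**
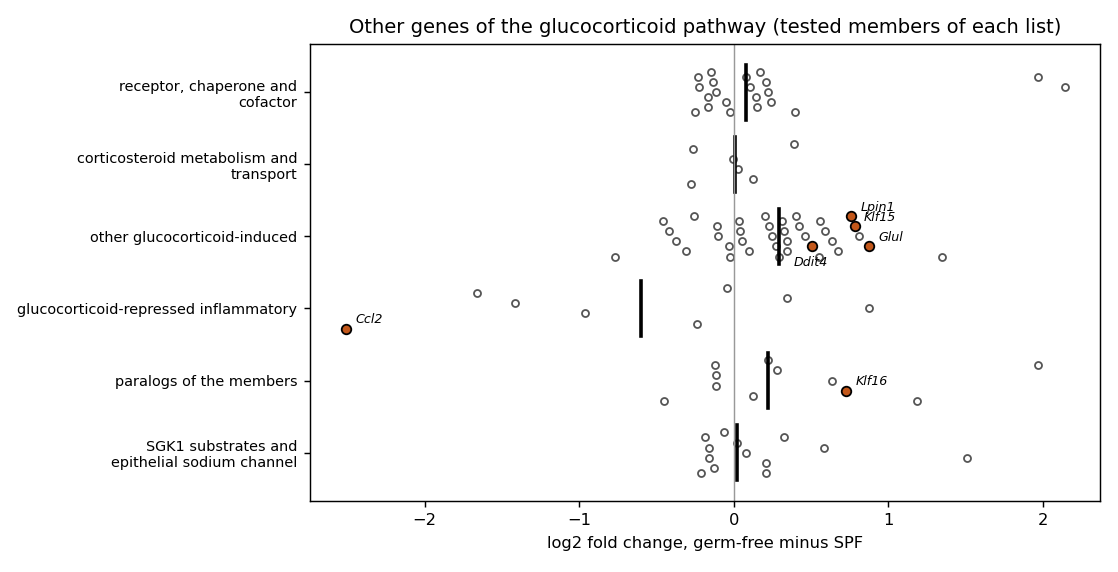
Log2 fold change, germ-free minus SPF, of each tested gene of the 6 other lists, 1 row per list, with black bars at the medians. Filled points passed the test. The 4 filled points among other glucocorticoid-induced genes lie above 0, and their list has a median of 0.30.

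The genes whose values followed each called gene most closely over the 8 libraries were also listed, among the 10696 tested genes averaging 5 CPM or more. Likeness was the root mean square difference of log2(CPM + 1) values, each centred on its own mean. For Tsc22d3 the nearest were Ulk2, an autophagy kinase gene, Lyst, a lysosome trafficking gene, and Cdca7, a chromatin factor gene, at 0.0867, 0.0870 and 0.0915. For Sgk1 they were Gipc1, a trafficking adaptor gene, S100a14, an epithelial calcium-binding protein gene, and Dbnl, an actin-binding adaptor gene, at 0.0748, 0.0807 and 0.0858. For Zbtb16 they were the predicted genes Gm49980 and Gm46620 and the clock repressor gene Bhlhe41, at 0.502, 0.519 and 0.527. By this distance no gene came as near to Zbtb16 as to the other 2, but the distance can grow with the fold. In the same order, Pearson correlations were 0.966, 0.962 and 0.960 with Tsc22d3 and 0.967, 0.954 and 0.961 with Sgk1. With Zbtb16 they were 0.938, 0.942 and 0.922. Bhlhe41 averaged 64.9 ± 5.34 CPM in germ-free and 9.41 ± 1.59 CPM in SPF libraries. These likenesses carry the group difference itself and are a description with no test.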

How the data were processed

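RNA of sorted buccal epithelial cells was sequenced from 4 germ-free and 4 SPF mice, with a stranded total RNA kit and ribosomal RNA depletion, per the labels' protocols. The submitters' processing notes name TopHat2 2.1.1 and HTSeq 0.6.0, GRCm38 as the build, DESeq2 1.22.2, and cutadapt 1.18 and bcl2fastq 2.18.0.12, without stating the role of any. The deposited counts were raw whole numbers per gene, one column per library. The authors' normalized signal was, per the file headers, the count divided by 1 size factor per library. The deposited log2 fold changes, the Wald score and the p-values were those of the authors' DESeq2 run, SPF over germ-free. Whether counting used the strand is not stated there.

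Total counts per library were 10430507 to 15524731 in germ-free and 10260264 to 14730960 in SPF libraries. Genes were kept by filterByExpr (minimum count 10, minimum total 15), which left 15098. TMM scaling preceded the test in edgeR 4.0.16 (glmQLFit robust, two-sided quasi-likelihood F test, group as the only term, prior count 0.125) with Benjamini-Hochberg adjustment over all genes. Calls are genes whose adjusted p fell under 0.05. SEs were taken from the F statistic. CPM used TMM library sizes, and RPKM used union exon lengths of GENCODE M21, which shared start and end with 99.0% of identifiers. p-values measure the spread between these 8 samples. The 95% intervals of fold changes come from the same SEs and so include the spread between samples. Floors (3 counts) cover counting error only. Alternatives were DESeq2 1.42.0, limma 3.58.1 voom, other scalings and filters, a replicate block, a stromal score and each library left out, in R 4.3.3.

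The 6 genes and the lists were chosen with earlier results of these data known. Named beside the 6 were the called genes and the 3 smallest p-values of each list, Nr3c2, Fkbp4, Hsd11b1, Hsd11b2, Per1 and Per2, and the 3 genes nearest to each called gene. Genes outside this rule are said to be so.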

Additional observations from a re-analysis of the deposited data

Results flagged for a closer look

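In 8 of the 72 groups of 4 libraries formed by the 36 named genes, 1 library stood apart from the other 3 by more than Dixon's 95% critical value for the gap over the range, where chance alone flags about 1 in 20 groups. Sgk1 was at 286 CPM in SPF 1, with the other SPF libraries at 234 to 241 CPM. Lpin1 was at 14.2 CPM in SPF 1, with the others at 10.7 to 11.1 CPM. Per1 was at 246.9 CPM in SPF 5, with the others at 163 to 177 CPM. Klf16 was at 23.5 CPM in germ-free 2, with the others at 29.9 to 30.6 CPM. Ccl2 was at 1.15 CPM in germ-free 3, with the others at 0.660 to 0.743 CPM. Gipc1 was at 69.2 CPM in germ-free 3, with the others at 59.1 to 60.0 CPM. Hsd11b1 was at 1.09 CPM in germ-free 3, with the others at 0 to 0.0929 CPM. Hsd11b2 was at 0.0684 CPM in SPF 3, which is 1 count, with the others at 0.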

How the results depend on the processing

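Counts of calls moved with the test and with single libraries. For all genes, 631 calls became 1257 by DESeq2, 975 by limma voom with quality weights, 315 with a replicate block on the 3 shared animal numbers, 350 in the same 6 libraries without the block (an alternative chosen after seeing the data), 51 with the stromal covariate, and 284 to 688 with 1 library left out. Of the 6 genes 3 were called, 5 by DESeq2, 1 with the stromal covariate, and 3 to 4 with 1 library left out. For receptor, chaperone and cofactor genes the count was 0, and 4 by DESeq2, 2 by limma voom, 1 with upper-quartile factors or with at least 1 CPM in 4 libraries, and 0 to 1 with 1 library left out. For other glucocorticoid-induced genes it was 4, and 7 by DESeq2, 5 by limma voom, 2 with no filter, 5 with the replicate block, 1 in the 6 libraries without the block, 0 with the stromal covariate, and 0 to 4 with 1 library left out. For repressed inflammatory genes it was 1, and 0 by limma voom, in both fits of 6 libraries and with the stromal covariate, and 0 to 1 with 1 library left out. For paralogs it was 1, and 4 by DESeq2, 3 by limma voom, 2 with the replicate block, 0 with the stromal covariate, and 0 to 1 with 1 library left out. Corticosteroid metabolism and SGK1 substrate genes kept a count of 0 under every alternative. Per1 changed sign without germ-free 2 (−0.064), SPF 1 (−0.036) or SPF 3 (−0.031), in a span of −0.064 to 0.19 with 1 library left out. Whether the animal numbers pair the samples was not settled. Deviations from the group means correlated at 0.19, −0.08 and −0.07 for numbers 1, 3 and 4. Over all pairs of a germ-free and an SPF library they ran from −0.18 (germ-free 3 with SPF 1) to 0.19 (germ-free 3 with SPF 5). These few values cannot decide on pairing. Under the block Zbtb16, Tsc22d3 and Sgk1 were called. Of the other induced genes Glul was called under it, Klf15, Lpin1 and Ddit4 were not, and Dusp1 (0.75), Cebpd (0.83), Cebpb (0.54) and Irs2 (0.75) were, all higher. No scaling moved the median of all genes by more than 0.1. Low counts limit Fkbp5 in SPF 1, at 8 counts, and Nr3c2 in SPF 1, at 6 counts. They also limit Ccl2, at 8 to 18 counts in germ-free libraries and 8 in SPF 1. The cause of these changes was not tested.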
